A study of Homo sapiens with 18 samples.

Results

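The keratin genes were the 55 genes, of 22336 in the mRNA-seq table, whose symbol is KRT followed by a number and at most 1 letter from A to C. They were described together with the WHG-STARR-seq enhancers and the ATAC-seq sites whose centre lay within 20 kb of one of their start sites on hg19. That distance took in 58 of 94527 enhancers and 14 of 51909 ATAC-seq sites. All 55 genes had a start site in the GENCODE annotation of that build. Of these genes, 27 lie in the cluster on chromosome 12, which holds the type II keratins and the type I keratin KRT18, and 28 lie in the type I cluster on chromosome 17.

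All samples but the WHG-STARR-seq input library came from LNCaP, an established human prostate cancer cell line of luminal type. ATAC-seq was done in 3 cultures given 100 ng/ml trichostatin A (TSA), an inhibitor of histone deacetylases, and 3 given the vehicle DMSO, each for 24 h. The mRNA-seq libraries came from 3 TSA cultures, 3 vehicle cultures and 3 untreated cultures. The labels give serum stripped with charcoal, which removes steroid hormones, for all of these cultures. WHG-STARR-seq, in which random genomic fragments drive their own transcription from a reporter plasmid, had 2 output libraries harvested 72 h after electroporation and 1 input library. The input library was amplified from the plasmid pool itself, whose fragments came from commercial human genomic DNA. The deposited files hold values pooled over libraries. No spread between replicates and no depth per library can therefore be given, and every comparison below is a description of pooled values.

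Keratins are the intermediate filament proteins of epithelial cells, and each filament is built from pairs of a type I and a type II chain. Pairs are typical of a tissue. KRT8 with KRT18 marks simple epithelia such as the luminal cells of the prostate, KRT5 with KRT14 marks the basal cells of stratified epithelia, and other pairs are used in the upper epidermis, in mucosa, in the hair follicle and in hair and nail. The filaments are anchored to desmosomes between cells and to hemidesmosomes at the basement membrane.

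A first set of sequences is the stretch just before the start of transcription, shown because keratin promoters stood apart from other promoters in the motifs they hold. RefSeq promoters were matched for 34 of the 55 genes. KRT7, KRT18, KRT19, KRT23 and KRT80 were among those without a match. Of the simple epithelial keratins only KRT8 and KRT20 were therefore included, and the motif shares below cover the matched genes alone. Each line gives the 60 bases upstream of the annotated start on GRCh38.p14, 5′ to 3′ on the strand of the gene, which is the minus strand for every gene shown. Capitals mark the TATA box letters TATAAA. The lines for KRT5 and KRT20 are shown as promoters without that match.

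KRT10 (chr17:40822615-40822674): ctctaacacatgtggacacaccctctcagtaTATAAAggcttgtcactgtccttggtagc

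KRT71 (chr12:52553146-52553205): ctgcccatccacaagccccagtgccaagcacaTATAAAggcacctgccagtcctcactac

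KRT76 (chr12:52777346-52777405): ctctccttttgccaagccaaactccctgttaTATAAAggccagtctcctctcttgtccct

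KRT3 (chr12:52796118-52796177): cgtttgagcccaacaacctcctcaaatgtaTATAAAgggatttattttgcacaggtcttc

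KRT28 (chr17:40799960-40800019): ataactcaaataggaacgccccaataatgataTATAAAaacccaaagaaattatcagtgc

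KRT37 (chr17:41424586-41424645): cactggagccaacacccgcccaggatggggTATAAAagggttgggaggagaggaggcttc

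KRT38 (chr17:41440984-41441043): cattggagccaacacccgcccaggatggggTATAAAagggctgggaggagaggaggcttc

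KRT5 (chr12:52520395-52520454): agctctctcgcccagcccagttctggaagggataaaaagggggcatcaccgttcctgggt

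KRT20 (chr17:40885243-40885302): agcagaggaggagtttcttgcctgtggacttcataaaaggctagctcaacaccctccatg

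In the 250 bases upstream of the start, searched on both strands, TATAAA was found at 21 of 34 keratin genes (61.8%) and at 1597 of 13514 genes of the mRNA-seq table with a RefSeq promoter (11.8%). The GC box letters GGGCGG had the reverse pattern, with a match at 4 of 34 keratin genes (11.8%) and at 8510 of all 13514 genes (63.0%). The AP-1 letters TGANTCA were found at 0 of 34 keratin genes and at 987 of all genes (7.30%). On the strand of the gene alone and within 60 bases of the start, a window chosen after the sequences were seen, TATAAA was found at 17 of 34 keratin genes (50.0%) and at 624 of all genes (4.62%). In the 17 genes its first base lay 27 to 53 bases upstream of the start, with a median of 29. KRT37 and KRT38, a pair of neighbouring hair keratin genes, differed at 2 of these 60 bases. A match is a description of letters, and keratin promoters of 1 cluster share ancestry, so they are not independent of each other.

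**Figure D1:**
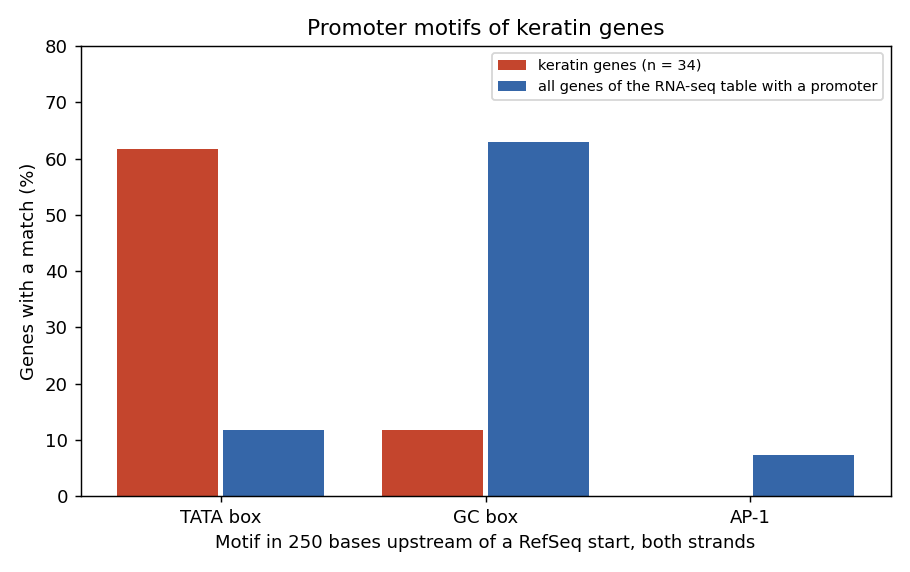
Share of genes (%) with a match to each motif in the 250 bases upstream of a RefSeq start, for 34 keratin genes (left bar of each pair) and for 13514 genes of the mRNA-seq table (right bar). The TATA box was found at 61.8% of keratin genes and 11.8% of all genes, and the GC box at 11.8% of keratin genes and 63.0% of all genes.

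A second set of sequences comes from 5 WHG-STARR-seq enhancers, 4 of them among the 5 of highest fold enrichment and 1, near KRT86, the enhancer that also overlapped ATAC-seq peaks. Each line gives 300 bases around the summit on hg19, plus strand. Capitals mark the forkhead letters TGTTTNC and the AP-1 letters TGANTCA on either strand, and no other motif that was searched fell in these windows.

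KRT23+14.9kb (chr17:39078613-39078912): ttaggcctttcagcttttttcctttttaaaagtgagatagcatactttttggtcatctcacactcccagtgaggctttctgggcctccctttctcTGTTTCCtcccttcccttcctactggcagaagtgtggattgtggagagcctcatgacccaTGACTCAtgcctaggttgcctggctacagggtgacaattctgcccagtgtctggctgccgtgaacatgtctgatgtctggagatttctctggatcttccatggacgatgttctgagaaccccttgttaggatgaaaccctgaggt

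KRT80+15.8kb (chr12:52569796-52570095): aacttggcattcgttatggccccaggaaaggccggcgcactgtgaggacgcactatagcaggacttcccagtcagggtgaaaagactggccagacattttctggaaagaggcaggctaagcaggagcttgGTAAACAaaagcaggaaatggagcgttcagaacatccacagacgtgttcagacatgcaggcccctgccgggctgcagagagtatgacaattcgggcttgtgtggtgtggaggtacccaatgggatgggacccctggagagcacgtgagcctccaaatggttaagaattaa

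KRT2-6.6kb (chr12:53052496-53052795): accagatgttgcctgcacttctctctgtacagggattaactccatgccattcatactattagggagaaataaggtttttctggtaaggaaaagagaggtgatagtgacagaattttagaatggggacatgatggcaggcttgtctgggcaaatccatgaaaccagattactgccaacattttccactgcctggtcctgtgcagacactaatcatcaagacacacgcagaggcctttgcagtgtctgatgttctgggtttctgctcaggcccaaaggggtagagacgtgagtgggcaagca

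KRT15+5.9kb (chr17:39669119-39669418): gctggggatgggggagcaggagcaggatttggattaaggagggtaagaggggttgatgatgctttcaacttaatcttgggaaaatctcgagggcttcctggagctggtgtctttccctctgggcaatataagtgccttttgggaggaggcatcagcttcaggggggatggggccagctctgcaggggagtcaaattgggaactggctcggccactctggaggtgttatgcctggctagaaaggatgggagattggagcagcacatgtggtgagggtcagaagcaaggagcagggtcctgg

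KRT86+4.5kb (chr12:52672937-52673236): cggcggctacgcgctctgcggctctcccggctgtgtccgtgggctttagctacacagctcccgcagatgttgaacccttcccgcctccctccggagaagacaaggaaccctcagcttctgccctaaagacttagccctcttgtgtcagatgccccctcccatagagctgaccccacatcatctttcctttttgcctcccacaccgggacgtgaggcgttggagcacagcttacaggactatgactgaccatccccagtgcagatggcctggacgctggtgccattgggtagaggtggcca

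The expression values are the authors' average per gene over the libraries of their fit of TSA against vehicle, in log2 CPM (read counts scaled to an equal library total), and whether the untreated libraries entered it is not stated, so a level in TSA cultures alone or in vehicle cultures alone cannot be given. An average of at least 1 CPM was seen for 23 of 55 keratin genes (41.8%), and for 66.3% of all 22336 genes. The median average was -1.55 log2 CPM over keratin genes and 2.94 over all genes. The lowest value of the table, -2.62 log2 CPM, was shared by 2019 genes, and 10 keratin genes had it, all on chromosome 17. The clusters differed, with 20 of 27 genes at 1 CPM or more on chromosome 12 and 3 of 28 on chromosome 17. Most of those on chromosome 12 lie in the stretch from KRT75 to KRT78, which holds the near-equal averages described below. Without that stretch, an alternative added after the data were seen, 6 keratin genes reached 1 CPM. These were KRT80, KRT8 and KRT18 on chromosome 12 and KRT10, KRT20 and KRT19 on chromosome 17. KRT19, at 0.44 log2 CPM, lay just above 1 CPM and KRT14, at -0.86, just below it.

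The simple epithelial pair had the highest levels among keratins. KRT8, the type II chain of simple epithelia, averaged 8.70 log2 CPM. Its partner KRT18 averaged 7.89 log2 CPM. Per kb of transcript, so that genes can be compared, KRT8 stood at 233 CPM per kb and KRT18 at 167 CPM per kb, a ratio of 1.39, and no other keratin was above 46.9. Both genes have many processed copies in the genome, and 39.2% of the 50-base words of the KRT8 transcript and 36.7% of those of KRT18 occurred in transcripts of other genes as well, most often in KRT8P3 and KRT18P11. Reads from such stretches can be split among copies, so both levels are uncertain.

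The other simple epithelial keratins were lower. KRT20, a keratin of gut epithelium and urothelium, averaged 2.85 log2 CPM (3.99 CPM per kb), and KRT19, the smallest type I keratin, averaged 0.44 log2 CPM (0.974 CPM per kb). KRT7, found in many simple and glandular epithelia, averaged -1.66 log2 CPM. KRT23, a type I keratin, averaged -2.55 log2 CPM, close to the lowest value of the table.

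From KRT5 to KRT78, 13 consecutive keratin genes over 334 kb of chromosome 12 had nearly the same average. Their values lay between 6.21 log2 CPM (KRT73) and 6.51 log2 CPM (KRT72), although the genes belong to basal, epidermal, mucosal and hair follicle epithelia. KRT5, of basal cells, averaged 6.23 log2 CPM, and KRT71 and KRT74, of the inner root sheath of the hair follicle, averaged 6.22 each. KRT2, of the upper epidermis, averaged 6.27 log2 CPM. The last 7 genes were closer still. KRT1 and KRT77 of the epidermis and KRT76, KRT3, KRT4, KRT79 and KRT78 all lay between 6.35 and 6.36 log2 CPM, which is 81.8 to 82.2 CPM.

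Among neighbouring genes of the table with at least 1 CPM each, pairs of keratin genes differed by less than 0.01 log2 CPM in 8 of 18 cases, and pairs of any genes in 76 of 10622 (0.715%). With steps of less than 0.3 log2 CPM between neighbours, a limit chosen after the data were seen, the 13 keratins formed a row, and the next longest in the table was a row of 12 genes from PCDHGA1 to PCDHGA8, in a protocadherin cluster whose transcripts share exons. With steps of less than 0.2 the keratin row kept 9 genes, from KRT73 to KRT78, against 12 protocadherin genes, and with steps of less than 0.1 it kept the same 9 against 6. KRT72 set these apart, since it lay above both neighbours. The CPM of the 13 keratins ran from 74.2 to 90.9. Per kb of transcript they ran from 24.4 CPM per kb (KRT77, 3366 bases) to 46.9 CPM per kb (KRT72, 1940 bases). Next to this row, KRT6A, KRT6C and KRT6B, the keratins of stressed and wounded epidermis, averaged 4.67, 3.28 and 2.26 log2 CPM, and KRT75 of the hair follicle averaged 3.68. Between 39.2% and 53.1% of the 50-base words of the KRT6 genes were shared with other transcripts, mostly with each other. In the 13 genes this share was at most 4.52%.

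Accessibility at the start sites did not have the pattern of these averages. A start site of 0 of the 13 genes lay inside a TSA peak and of 1 of 13, KRT4, inside a vehicle peak. Of the 694 genes of the table with an average in the same range as the 13 keratins, 88.6% had a start site inside a TSA peak and 84.9% inside a vehicle peak. How spliced or multiply aligned reads were counted is not described, and its part in these averages was not tested. KRT8 is the next keratin beyond KRT78, and the CPM of the 13 genes was 17.9% to 21.9% of that of KRT8. Without the 17 genes from KRT75 to KRT78, a count chosen after the data were seen, 6 keratin genes had an average of at least 1 CPM: KRT80, KRT8, KRT18, KRT10, KRT20 and KRT19.

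**Figure D2:**
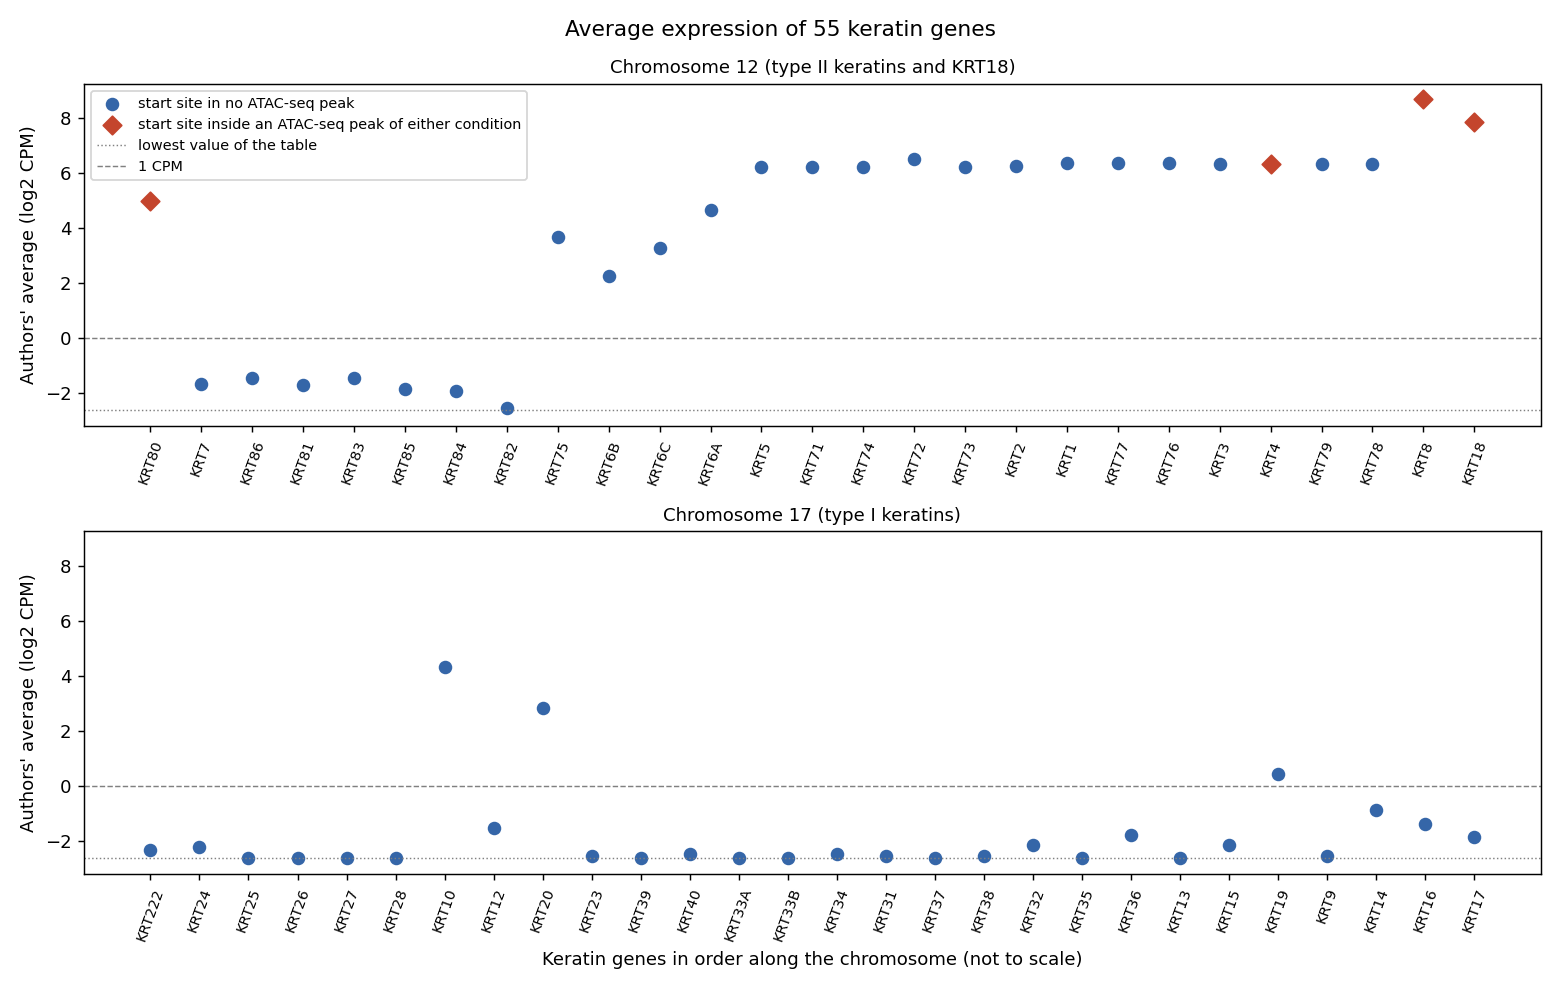
Authors' average expression (log2 CPM, y axis) of each keratin gene in order along chromosome 12 (upper panel) and chromosome 17 (lower panel), with 1 point per gene, diamonds for genes with a start site inside an ATAC-seq peak, and lines at 1 CPM and at the lowest value of the table. The 13 genes from KRT5 to KRT78 sit between 6.21 and 6.51 log2 CPM, and only KRT4 of them has a diamond.

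Outside that row, levels differed within most groups. KRT80, a type II keratin of many epithelia, averaged 4.99 log2 CPM (8.19 CPM per kb), and KRT10, the type I keratin of the upper epidermis, averaged 4.33 log2 CPM (9.38 CPM per kb). Of the 17 hair and nail keratins, 0 reached 1 CPM, with averages from -2.62 to -1.44 log2 CPM. These included KRT81, KRT83, KRT85 and KRT86 of the chromosome 12 cluster at -1.71, -1.44, -1.84 and -1.44. The type I keratins of the root sheath, KRT25, KRT26, KRT27 and KRT28, were all at the lowest value. The basal keratins KRT14, KRT15 and KRT17 averaged -0.86, -2.15 and -1.84 log2 CPM. KRT13 of mucosa was at the lowest value and KRT222 averaged -2.34. Of 87 genes for keratin-associated proteins, which bind hair keratins, 2 had at least 1 CPM.

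Type II and type I partners were also set side by side, in pairs chosen after their values were seen. The values of KRT5, KRT3, KRT1 and KRT4 belong to the row of 13 near-equal averages, whose start sites lay outside ATAC-seq peaks but for KRT4, so ratios with them carry the same limit. KRT5 stood at 33.5 CPM per kb and KRT14 at 0.336, a ratio of 99.8. KRT3 stood at 35.3 CPM per kb and its corneal partner KRT12 at 0.182, a ratio of 194. KRT6A stood at 11.01 CPM per kb and KRT16 at 0.233, a ratio of 47.2. Of the 50-base words of KRT6A 39.2% and of KRT16 21.8% occurred in other transcripts as well, so this ratio is uncertain too. For KRT1 (33.5 CPM per kb) and KRT10 (9.38) the ratio was 3.57. KRT4 stood at 38.3 CPM per kb, and its partner KRT13 was at the lowest value, so no ratio was taken. The lowest value of the table is not 0, so the averages of low genes lie above their reads and these ratios depend on that floor.

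Markers of luminal and basal cells were set beside the label of the cell line, in averages that take in TSA cultures. All 10 luminal markers had at least 1 CPM, where 66.3% of all genes did. They ran from 4.41 log2 CPM for KLK2 to 8.81 for HOXB13, a prostate homeobox factor. Of 4 basal markers, KRT5 alone reached 1 CPM. KRT14, KRT15 and TP63, the master regulator of basal cells, lay at -0.86, -2.15 and -1.89 log2 CPM. The value of KRT5, 6.23 log2 CPM, belongs to the row of 13 near-equal averages. No KRT5 start site lay inside an ATAC-seq peak, so its use as a marker carries the limit given for that row. VIM, the intermediate filament of mesenchymal cells, averaged 5.88 log2 CPM, and both VIM and KRT5 lay above KLK2.

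Of the genes that work with keratins, 7 of 12 desmosome genes reached 1 CPM, where 66.3% of all genes did. JUP and DSP, which tie keratin filaments to the desmosome, averaged 8.84 and 8.07 log2 CPM and the cadherin DSG2 averaged 7.46. The other desmosomal cadherins of the list were split. DSG1, DSG3, DSG4 and DSC1 stayed at -1.41, -2.40, -2.62 and -0.98 log2 CPM, and DSC2 and DSC3 averaged 6.55 and 3.68. Of 7 plakin and hemidesmosome genes 6 reached 1 CPM. PLEC, a linker of filaments, averaged 7.88 log2 CPM, and COL17A1, a hemidesmosome collagen and the one below 1 CPM, averaged -1.09. Among 13 other intermediate filament genes 9 did, with LMNA of the nuclear lamina at 7.17 log2 CPM. Among 11 keratin binding and regulator genes 9 did, with GRHL2, a regulator of epithelial genes, at 7.32.

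WHG-STARR-seq enhancers lay within 20 kb of a start site of 46 of 55 keratin genes (83.6%), against 82.5% of the 20835 genes with an annotated start site. Open enhancers, those that overlap a DNase I site of LNCaP cells, were near 16 keratin genes (29.1%) and near 42.6% of all genes. Closed enhancers were near 38 keratin genes (69.1%) and near 67.5% of all genes. The share of open enhancers was 29.3% of the 58 keratin enhancers, or 17, and 12.7% of all enhancers. The DNase I site score of the 17 had a median of 0.0689, against 0.1057 for all open enhancers. For the strongest of the 17 by fold enrichment, near KRT23, that score was 0.0409. All enhancers were taken at any distance from a gene, and no share was computed over those within 20 kb of any start site. The same holds for the fold and motif values of all enhancers below. Neighbouring keratin genes share enhancers, so genes are not independent units here. No gene had more than 4, and KRT5, KRT76, KRT15 and KRT19 had 4 each. The 9 genes with none were KRT6B, KRT6C, KRT79, KRT10, KRT12, KRT20, KRT38, KRT36 and KRT17. A distance of 20 kb left out a strong enhancer 21.2 kb from KRT17, with a fold enrichment of 8.92, while the outermost inside it lay 19.0 kb from KRT7 at 2.29.

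The fold enrichment of output over input had a median of 2.77 over the 58 keratin enhancers and 3.08 over all enhancers. It ran from 1.78 near KRT5 to 8.85 near KRT23. The median was 3.19 for the 17 open and 2.72 for the 41 closed keratin enhancers, against 2.78 for all open and 3.10 for all closed enhancers. By centre, 28 of the 58 were intergenic, 19 intronic, 6 in a promoter, 3 in an exon and 2 in a UTR. Output fragments at the summit, recovered from the fold and the p-value, numbered 30 to 200. Scaled input fragments had a median of 23.4 at keratin enhancers and 14.4 at all enhancers. The 95% intervals below are exact Poisson intervals of the output fragments. They cover counting error only, with the input taken as known and no replicate spread.

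The strongest keratin enhancer was open and lay 14.9 kb downstream of the KRT23 start site, at chr17:39078393-39079125. It had 90 output fragments against 9.29 scaled input fragments, a fold enrichment of 8.85 (7.13 to 10.9), higher than 98.5% of all enhancers. The next was open and in an intron of KRT80, 15.8 kb downstream of the start, at chr12:52569543-52570483. It had 200 output fragments against 27.8 input fragments, a fold of 6.98 (6.05 to 8.01). These intervals overlap, so the order of the 2 is not beyond counting error. The KRT23 enhancer overlapped the downstream end of KRT23, a gene near the lowest value of the table. By centre it lay in an intron of another annotated gene, ENSG00000234477. The KRT80 enhancer stood inside a gene at 4.99 log2 CPM.

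The strongest closed enhancer lay 6.60 kb upstream of KRT2, at chr12:53052187-53053005, with 115 output fragments against 18.4 input fragments and a fold of 5.99 (4.96 to 7.18). A closed enhancer 11.2 kb upstream of KRT6A had 50 output fragments against 8.40 input fragments, a fold of 5.43 (4.06 to 7.12), and this input was the genome-wide background level, shared by 14.4% of all enhancers. In its 300-base window 79.9% of 32-base words occurred elsewhere in the genome, so its fragments are uncertain. The same share was over 10% for 10 of the 58 enhancers and 0 for 44. The fifth was open and lay 5.88 kb downstream of the KRT15 start site at chr17:39668901-39669631, with 124 output fragments against 24.2 input fragments and a fold of 4.96 (4.13 to 5.91).

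Near the expressed pair, an open enhancer lay 29 bases upstream of a start site of KRT8 and inside the KRT18 gene. With 113 output fragments against 29.1 input fragments, its fold was 3.79 (3.13 to 4.55). A weaker open enhancer lay 1.17 kb upstream of another KRT8 start site, with a fold of 2.16 (1.70 to 2.70). KRT8 has 6 annotated start sites, and these enhancers lay by those at chr12:53343658 and chr12:53320253. Of the 2 ATAC-seq sites within 20 kb of KRT8, the one at chr12:53297137-53299233 lay by a different start site. The other was the site at the KRT18 promoter, chr12:53342426-53343094, near the start site at chr12:53343658. The enhancer at that start site overlapped no ATAC-seq peak. Of the 4 enhancers within reach of KRT19, the open one 1.00 kb upstream of its start had a fold of 1.95 (1.44 to 2.58), and the others were those near KRT15 and a closed one at 1.86. KRT15 had a further open enhancer 918 bases upstream of a start site, with a fold of 3.36 (2.76 to 4.06), and both KRT15 enhancers lay within 20 kb of KRT13 too. KRT7, with an average of -1.66 log2 CPM, had 3 open enhancers, with folds of 2.15, 1.95 and 2.29.

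In the hair keratin cluster, KRT83 had open enhancers at folds of 2.14 and 3.72, and KRT85 one at 2.44. The nearest open enhancer of KRT86 had a fold of 3.26 and also lay within 20 kb of KRT81. Outside the hair keratins, KRT222 on chromosome 17 had one at 3.19. That enhancer lay in a UTR of SMARCE1, the gene with the nearest start site. KRT71 and KRT74 had open enhancers 7.48 kb and 9.03 kb upstream of their start sites, with folds of 2.83 (2.21 to 3.56) and 3.71 (3.06 to 4.46), and KRT72 lay within 20 kb of the stronger one. KRT14 had 3 closed enhancers within reach, the nearest with a fold of 2.77. Closed enhancers at or just past a start site were found at KRT3, with the centre 2.5 bases upstream and a fold of 2.66, at KRT32, 185 bases downstream with a fold of 2.76, and at KRT31, 926 bases downstream with a fold of 2.55. All 4 enhancers within reach of KRT5 were closed, and the 3 nearest to it had folds of 1.78, 2.67 and 2.85.

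**Figure D3:**
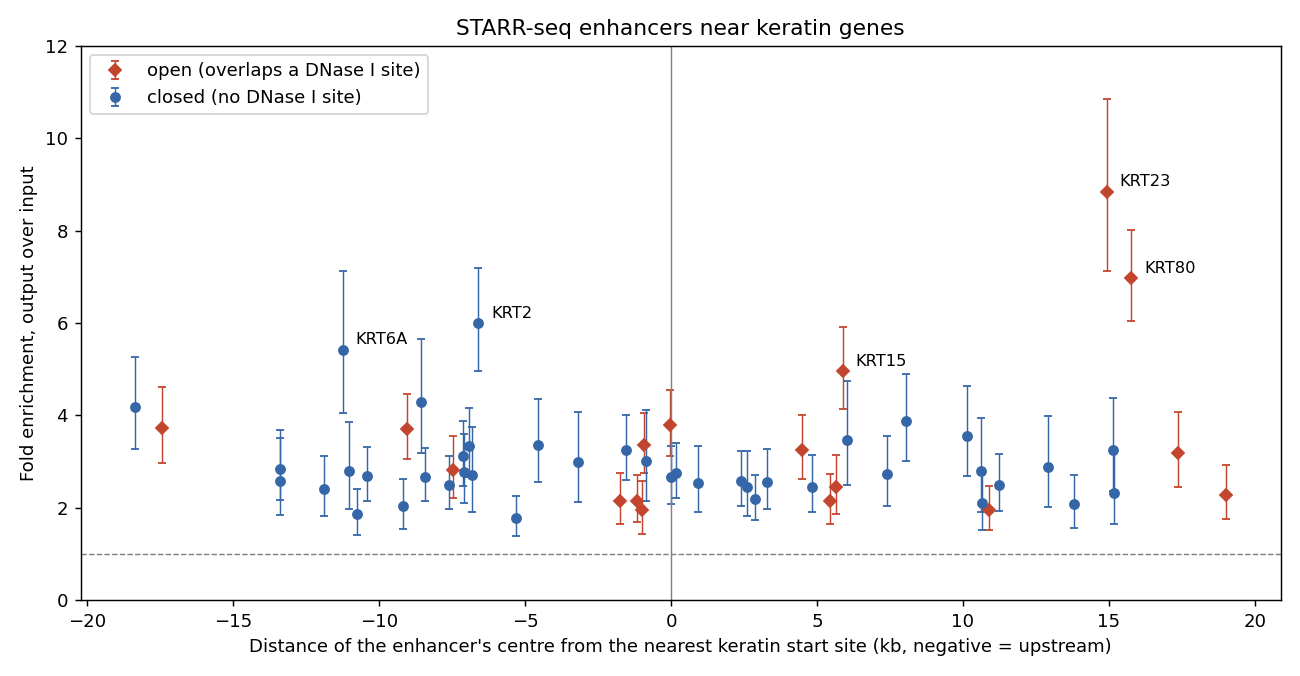
Fold enrichment of output over input (y axis) against the distance in kb from the nearest keratin start site (x axis, negative is upstream) for 58 enhancers, with diamonds for 17 open and circles for 41 closed ones and bars for 95% Poisson intervals of the output fragments. The 5 named points lie between 4.96 and 8.85, and the lowest of all is at 1.78.

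AP-1 letters were found in the 300-base windows of 13 of 58 keratin enhancers (22.4%) and of 10947 of all 94527 enhancers (11.6%). In the central 200 bases the counts were 7 of 58 (12.1%) and 7792 of all (8.24%). The AP-2 letters GCCNNNGGC were found in 10 keratin enhancers (17.2%) and 10.2% of all, forkhead letters in 9 (15.5%) and 21.9% of all, and the GC box in 4 (6.90%) and 8.03% of all. Split by state, AP-2 letters were in 1 of 17 open keratin enhancers, against 23.2% of all open ones, and in 9 of 41 closed, against 8.25% of all closed ones. The GC box was in 1 of 17 open keratin enhancers, against 27.4% of all open ones, and in 3 of 41 closed, against 5.22% of all closed ones. AP-1 letters were in 5 of 17 open, against 10.0% of all open ones, and in 8 of 41 closed, against 11.8% of all closed ones. The ETS letters CCGGAAG and the grainyhead-like letters AACCNGTT were each found in 1 (1.72%), against 2.21% and 1.83% of all enhancers. The median GC content of these windows was 52.7% for keratin enhancers and 48.7% for all, and its part in the motif shares was not tested.

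ATAC-seq sites were scarce around keratin genes. At least 1 of the 14 sites lay within 20 kb of 13 of 55 keratin genes (23.6%), against 79.8% of all genes. All but 1 of the sites lay on chromosome 12. A start site inside a TSA peak was found for 3 keratin genes (5.45%), against 59.4% of all genes, and inside a vehicle peak for 4 (7.27%), against 55.0% of all genes. KRT80, KRT8 and KRT18 had both and KRT4 a vehicle peak alone.

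TSA and vehicle were compared by the presence of a peak in the pooled list of each condition. Of the 14 sites, 5 had a TSA peak only (35.7%), 3 a vehicle peak only (21.4%) and 6 had both (42.9%). Over all 51909 sites the shares were 25.9% for TSA only, 21.6% for vehicle only and 52.6% for both. By genes, 5 (9.09%) lay within 20 kb of a site of TSA only, against 22.5% of all genes, and 6 (10.9%) within 20 kb of a site of vehicle only, against 15.1% of all genes. The lists end at an Fseq score of 0.0377 for TSA and 0.0390 for vehicle, so a missing peak is one below the end of that list, and their median scores were 0.0588 for TSA and 0.0591 for vehicle. How scores scale between conditions is not described, and no fold was taken between them.

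The highest TSA peak near a keratin gene was a site of TSA only, 15.7 kb upstream of KRT80 at chr12:52600689-52602301, in an intron of LINC02874. Its score was 0.0739 (rank 14440, with rank 1 the highest peak of the list). At the KRT80 promoter the peaks scored 0.0573 in TSA (rank 21334) and 0.0537 in vehicle (rank 22832). Upstream of KRT83, 6.46 kb from its start site, the scores were 0.0570 in TSA (rank 21478) and 0.0466 in vehicle (rank 28921). At the KRT18 promoter they were 0.0563 in TSA (rank 21886) and 0.0501 in vehicle (rank 25611). The fifth was a site of TSA only 19.7 kb upstream of KRT7, at chr12:52606587-52608049 in LINC00592, with a score of 0.0501 (rank 26182), and another of TSA only stood 16.0 kb upstream of KRT7 with a score of 0.0470 (rank 28944).

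At KRT8 the site 675 bases downstream of a start site was found in both, with scores of 0.0458 in TSA (rank 30094) and 0.0445 in vehicle (rank 31130). A site in KRT2, 1.34 kb downstream of its start, was found in both, with scores of 0.0386 in TSA (rank 39474) and 0.0447 in vehicle (rank 30899). A site of TSA only lay 16.0 kb upstream of KRT73, with a score of 0.0494 (rank 26841). The sites of vehicle only lay 306 bases upstream of the KRT4 start site (score 0.04998, rank 25720), 4.94 kb upstream of KRT3 (0.0471, rank 28466) and 6.55 kb downstream of a start site of KRT86 (0.0394, rank 38159, near the end of the vehicle list). The site by KRT86 lay in the promoter of another annotated gene, ENSG00000257829. The site of TSA only 18.7 kb upstream of KRT20 was near the end of the TSA list, with a score of 0.0379 (rank 40630).

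**Figure D4:**
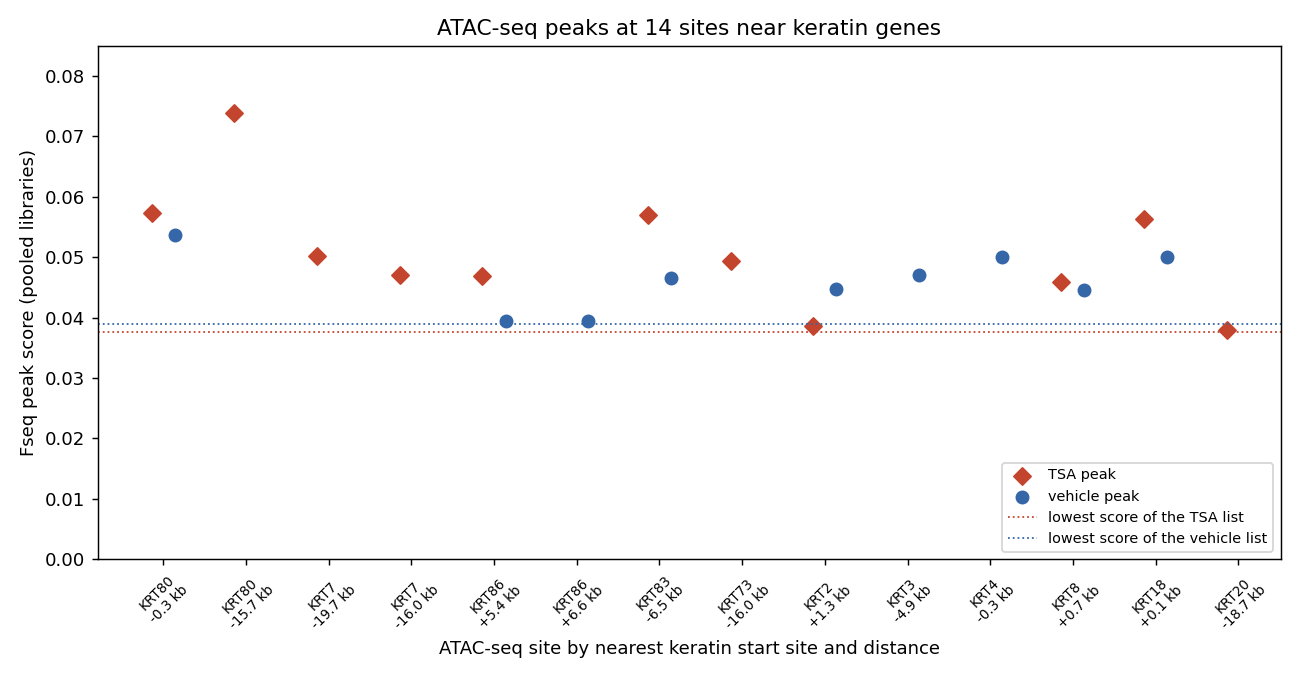
Fseq peak score of the pooled libraries (y axis) at the 14 ATAC-seq sites near keratin genes (x axis, by gene and distance from its start site), with diamonds for TSA on the left and circles for vehicle on the right, and dotted lines at the lowest score of each list. The 5 sites with a diamond alone run from 0.0379 to 0.0739 and the 3 with a circle alone from 0.0394 to 0.04998.

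Enhancers and ATAC-seq peaks hardly met at keratin genes. Of the 58 enhancers 1 overlapped a peak of either condition, against 8.46% of all enhancers. It was the open enhancer 4.50 kb downstream of a KRT86 start site at chr12:52672610-52673257, with 87 output fragments against 26 input fragments and a fold of 3.26 (2.62 to 4.01). Its peaks scored 0.0469 in TSA (rank 29072) and 0.0395 in vehicle (rank 37982). By centre, both the enhancer and the ATAC-seq site there lay in the promoter of another annotated gene, ENSG00000257830. Of the 41 closed keratin enhancers, 0 overlapped a TSA peak without a vehicle peak, against 1.49% of all closed enhancers.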

How the data were processed

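Expression values were the log2 CPM averages deposited by the authors, who aligned mRNA-seq reads to hg19 with TopHat, counted them per RefSeq gene and fitted TSA against vehicle with edgeR. Accessibility was taken from the deposited Fseq score of each ATAC-seq peak, called by the authors on the pooled libraries of each condition after Bowtie, cutadapt, Bowtie2 and Picard, with read starts offset for the transposase. Enhancers carried the fold (a ratio of output over input), the −log10 p and the −log10 q of the MACS2 call that the authors made on pooled output (unique alignments, duplicates collapsed within but kept across indexing libraries, so that fragments counted here can repeat), and open ones the score of a DNase I site, all as deposited. For none of them is a version given in the sources used here. The tables also hold the authors' own comparison of TSA with vehicle (fold changes, likelihood ratios, p-values and q-values), which was not used. The untreated mRNA-seq libraries have no values of their own in the table.

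Start sites came from the basic set of GENCODE v44 on GRCh37, the build of hg19, for 20835 genes of the table, of which 2315 were matched by an older symbol in RefSeq. Overlap meant at least 1 base, and promoters ran from 1000 bases upstream to 100 bases downstream. Transcript lengths were those of canonical transcripts. Output fragments were recovered from fold and p-value, and fell within 0.000652 of a whole number at the keratin enhancers. Genes were named if they averaged at least 1 CPM, had an open enhancer within 20 kb or lay by 1 of the 5 strongest enhancers or TSA peaks, as were KRT5, KRT7, KRT8, KRT14, KRT18 and KRT19. Others were named after their values were seen. Members and lists were chosen with earlier results of these data known. No test was run, since the files hold no values per library. The scripts (Python 3.11.15, numpy 2.4.6, pandas 2.3.3, scipy 1.17.1) were tested on simulated data.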

Additional observations from a re-analysis of the deposited data

How the results depend on the processing

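At a distance of 10 kb in place of 20 kb there were 36 enhancers in place of 58, 11 open in place of 17, 25 closed in place of 41, 30 genes with an enhancer in place of 46, 9 ATAC-seq sites in place of 14, and 0 sites of TSA only near 0 genes in place of 5 sites near 5 genes. At 50 kb, 28 genes had an open enhancer in place of 16, and 9 a site of TSA only in place of 5. A q-value under 1e-10 left 25 enhancers, 10 open and 15 closed. With the 20000 highest peaks of each condition, 1 site was of TSA only, near 1 gene, 0 of vehicle only and 0 of both, and 0 enhancers overlapped a vehicle peak in place of 1. In windows of 200 bases 7 enhancers had AP-1 letters in place of 13. Without the genes from KRT75 to KRT78, an alternative added after the data were seen, 6 genes had at least 1 CPM in place of 23. The row of 13 near-equal averages kept 9 genes at steps of less than 0.2 and of less than 0.1 log2 CPM, both added after the data were seen. All other alternatives tried (the most upstream start site, any base within the distance, a q-value under 1e-05, an overlap of 50%, 0.5 and 2 CPM) left each count within 1.5 times its value.

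No paired analysis was possible because the files hold no values per library, and for the same reason no replicate was left out. The pooled ATAC-seq lists limit the comparison of TSA with vehicle to peaks above the end of each list.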
